A study of Homo sapiens with 6 samples.

Results

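The aldo-keto reductases described here are 9 human genes, *AKR1A1*, *AKR1B10*, *AKR1B15*, *AKR1C1*, *AKR1C2*, *AKR1C3*, *AKR1C4*, *AKR7A2* and *AKR7A3*, taken by name from a deposited table of 58302 genes. They were read in 6 RNA-seq libraries labelled A549, a human lung adenocarcinoma line. There were 3 libraries of cells treated for 48 h with S541, also named 5n, at 1.0 µM, and 3 of cells that received DMSO, the solvent, for the same time. No gene edit, transgene or other agent is named for either group, and all cells were kept in DMEM with serum and antibiotics. Nothing in the labels says that replicates came from separate cultures. Each p-value sets the difference between the groups against the spread of these libraries within a group, and that spread may be only technical. Of the 9 members, 8 passed the filter on low counts and *AKR1B15* did not.

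Aldo-keto reductases are soluble, mostly NADPH-dependent enzymes that reduce the carbonyl group of aldehydes and ketones to an alcohol. Their substrates include sugar and lipid aldehydes, retinal, steroids and prostaglandins. The AKR1C and AKR1B10 genes are known targets of the transcription factor NRF2 (*NFE2L2*), which the adaptor KEAP1 marks for degradation. A549 cells carry a mutation of *KEAP1* and are known for high levels of *AKR1B10*, *AKR1C1*, *AKR1C2* and *ALDH1A1*, and for the loss of the neighbouring genes *CDKN2A* and *MTAP*.

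The libraries did not match that picture. *AKR1B10* had 0.688 to 0.840 CPM (counts as a share of the library's total, scaled by TMM) in the S541 libraries and 0.720 to 1.08 CPM in the DMSO libraries. *ALDH1A1*, a retinal and aldehyde dehydrogenase, had 0, 2 and 0 counts in the S541 libraries and 0 in each DMSO library. *CDKN2A*, a cell cycle inhibitor gene, had 118 to 260 CPM in S541 libraries and 128 to 199 CPM in DMSO libraries, and *MTAP*, an enzyme of purine salvage, had 17.7 to 21.0 CPM in S541 libraries and 21.2 to 27.7 CPM in DMSO libraries. Exons of other gene models cover 7.88% of the exonic bases of *CDKN2A* and 9.59% of those of *MTAP*. Of 6 epithelial markers, *KRT7*, *KRT8* and *KRT18* were abundant (609 to 1871 CPM), while *CDH1* and *KRT19* averaged under 1 CPM over the 6 libraries, and the 6 together summed to 3215 to 3712 CPM in S541 and 3790 to 4369 CPM in DMSO libraries. *KRT8* (log2 fold change −0.50, adjusted p = 0.0124, edgeR) and *KRT18* (−0.63, adjusted p = 0.00751) were lower in S541 libraries, and the part of this in the results below was not tested. The design text names retinal profiles, but *CRX*, a transcription factor gene of photoreceptors, had 0 counts in every library. The sums of 4 leukocyte genes were 0.814 to 1.29 CPM in S541 and 0.181 to 1.08 CPM in DMSO libraries. Those of 3 fibroblast genes, nearly all *COL1A1*, were 27.4 to 33.2 CPM in S541 and 31.3 to 48.5 CPM in DMSO libraries. Those of 3 endothelial genes, mostly *CDH5*, were 7.92 to 13.8 CPM in S541 and 11.3 to 11.5 CPM in DMSO libraries. The cells are therefore described only as the libraries labelled A549, and what line they came from was not tested. Total counts were 13956648 to 15794403 in S541 libraries and 14927663 to 17044139 in DMSO libraries. The first axis of a principal component analysis, with 38.89% of the variance, set the S541 libraries (−29.93 to −26.01) apart from the DMSO libraries (26.85 to 27.64). Along the second axis, with 21.5% of the variance, S541 replicate 3 (−20.5) and DMSO replicate 2 (−34.4) lay apart from the other 4 libraries (7.95 to 22.9).

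The 4 AKR1C genes lie close together on chromosome 10 and differ little in sequence, which bears on how reads are assigned to them. The coding sequences of *AKR1C1* and *AKR1C2* have 98.0% identical bases (950 of 969), and *AKR1C3* and *AKR1C4* have 88.2 to 91.4% identity with the others. Of all stretches of 75 bases in the main transcript of *AKR1C2*, 39.5% also occur in a transcript of *AKR1C1*, as do 21.9% in the other direction, 7.91% of those of *AKR1C3* occur in any other gene and 4.63% of those of *AKR1C4*. How the authors counted reads that match several genes is not stated in the labels or headers, so the split between *AKR1C1* and *AKR1C2* is uncertain. Of the stretches of the far more abundant *AKR1C3*, 6.87% occur in *AKR1C2*, 3.98% in *AKR1C1* and 1.96% in *AKR1C4*. The values of these genes may therefore hold reads of *AKR1C3*, which was not tested. The promoters of all 4 are printed so that the copies can be compared outside the coding sequence. The windows run from 250 bases before to 50 bases after the start (RefSeq, GRCh38.p14), with the CCAAT box, here read on the opposite strand as ATTGG, in capitals. They are chr10:4963165-4963464 (plus strand) for *AKR1C1*, chr10:5003808-5004107 (minus strand) for *AKR1C2*, chr10:5094164-5094463 (plus strand, the downstream one of 2 windows) for *AKR1C3* and chr10:5196587-5196886 (plus strand) for *AKR1C4*.
AKR1C1: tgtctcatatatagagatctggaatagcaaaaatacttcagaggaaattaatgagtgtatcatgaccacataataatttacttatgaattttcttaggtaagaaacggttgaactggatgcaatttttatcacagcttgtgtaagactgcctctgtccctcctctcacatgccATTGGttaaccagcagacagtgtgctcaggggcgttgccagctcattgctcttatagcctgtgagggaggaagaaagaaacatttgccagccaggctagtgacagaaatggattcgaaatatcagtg
AKR1C2: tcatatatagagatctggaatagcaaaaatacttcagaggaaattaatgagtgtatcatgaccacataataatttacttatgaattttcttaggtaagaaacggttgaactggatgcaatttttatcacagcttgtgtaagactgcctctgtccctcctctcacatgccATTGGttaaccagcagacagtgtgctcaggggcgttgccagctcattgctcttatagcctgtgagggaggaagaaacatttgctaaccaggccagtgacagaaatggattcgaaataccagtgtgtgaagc
AKR1C3: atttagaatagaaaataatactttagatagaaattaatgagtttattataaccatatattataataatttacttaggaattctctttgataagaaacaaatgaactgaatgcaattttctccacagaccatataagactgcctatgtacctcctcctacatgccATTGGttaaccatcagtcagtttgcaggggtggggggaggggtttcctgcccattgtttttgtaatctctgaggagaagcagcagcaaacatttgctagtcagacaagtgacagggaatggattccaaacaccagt
AKR1C4: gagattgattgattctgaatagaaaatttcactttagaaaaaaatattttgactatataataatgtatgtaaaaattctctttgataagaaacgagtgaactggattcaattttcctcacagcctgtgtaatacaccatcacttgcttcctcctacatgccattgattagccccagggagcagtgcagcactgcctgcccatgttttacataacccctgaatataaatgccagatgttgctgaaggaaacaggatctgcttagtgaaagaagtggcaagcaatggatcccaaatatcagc
The windows of *AKR1C1* and *AKR1C2* have 98.6% identical bases over their aligned part (4 mismatches), whereas those of *AKR1C1* and *AKR1C3* have 79.5% and those of *AKR1C1* and *AKR1C4* 70.5%. The CCAAT box, searched as CCAAT on both strands, begins 77, 81 and 86 bases before the start of *AKR1C1*, *AKR1C2* and *AKR1C3* and is not in the window of *AKR1C4*; it occurs in 34.6% of all 35116 promoter windows. The core of the antioxidant response element to which NRF2 binds, searched as TGACNNNGC on both strands, is in 13.3% of all windows and, among the 7 members with a window, in that of *AKR7A2* only, with 3 matches. The AP-1 motif TGANTCA, which overlaps an antioxidant core in 197 windows, is in 7.71% of all windows and in none of these members. The *AKR7A2* window is shown for its 3 matches, which are in capitals (chr1:19312095-19312394, minus strand, one of 2 windows).
AKR7A2: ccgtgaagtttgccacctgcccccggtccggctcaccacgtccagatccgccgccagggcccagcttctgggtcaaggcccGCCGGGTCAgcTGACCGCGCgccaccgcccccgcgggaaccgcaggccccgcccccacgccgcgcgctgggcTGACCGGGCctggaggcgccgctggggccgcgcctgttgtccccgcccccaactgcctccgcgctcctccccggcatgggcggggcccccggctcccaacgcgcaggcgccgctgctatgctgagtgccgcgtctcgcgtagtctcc
The first match lies on the opposite strand and begins 169 bases before the start, and the other two begin 158 and 97 bases before it. A match is a description of letters and not a measured binding site. Sequence outside these windows was not searched, so a window without a match does not show that the gene lacks the element.

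Per unit of length, *AKR1C3*, *AKR7A2* and *AKR1A1* were the abundant members and the rest were low. FPKM, the authors' values, are counts scaled by library size and gene length. *AKR7A2* averaged 18.8 ± 3.94 FPKM in S541 and 28.3 ± 3.51 FPKM in DMSO libraries, *AKR1C3* 14.6 ± 0.539 FPKM in S541 and 33.6 ± 8.16 FPKM in DMSO libraries, and *AKR1A1* 13.1 ± 0.387 FPKM in S541 and 15.1 ± 1.47 FPKM in DMSO libraries (SD, n = 3 each). In S541 libraries the ranges of *AKR7A2* and *AKR1C3* overlapped, and *AKR1C3* lay above *AKR1A1* in all 3. In DMSO libraries *AKR1C3* ranged from 24.7 to 40.7 FPKM and *AKR7A2* from 25.9 to 32.3 FPKM, so their order was not separated either, while *AKR1A1* lay below both. *AKR1C1* averaged 1.58 FPKM in S541 and 3.16 FPKM in DMSO libraries, and *AKR1C2*, *AKR1C4*, *AKR7A3*, *AKR1B10* and *AKR1B15* averaged at most 1.19 FPKM in S541 and 1.36 FPKM in DMSO libraries. By FPKM, *AKR1C3* ranked 2430th to 2627th among all genes in S541 libraries and 793rd to 1430th in DMSO libraries. The FPKM follow lengths of 9817 and 9332 bases for *AKR1C1* and *AKR1C2*, against main transcripts of 6705 and 3756 bases. For *AKR1C3*, *AKR1A1* and *AKR7A2* the lengths were 6688, 6426 and 3274 bases, against main transcripts of 1807, 1818 and 1362 bases. The FPKM of all these genes are therefore lower than a main transcript would give, by unlike factors. Per kilobase of the main transcript, the order in S541 libraries was *AKR1C3* (53.8 ± 2.90 CPM), *AKR1A1* (45.8 ± 1.98) and *AKR7A2* (44.8 ± 9.94), and in DMSO libraries *AKR1C3* (126 ± 29.6 CPM), *AKR7A2* (68.9 ± 9.23) and *AKR1A1* (54.1 ± 5.76). By this measure the S541 range of *AKR7A2* overlapped those of *AKR1C3* and *AKR1A1*, and the DMSO ranges did not overlap.

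**Figure D1:**
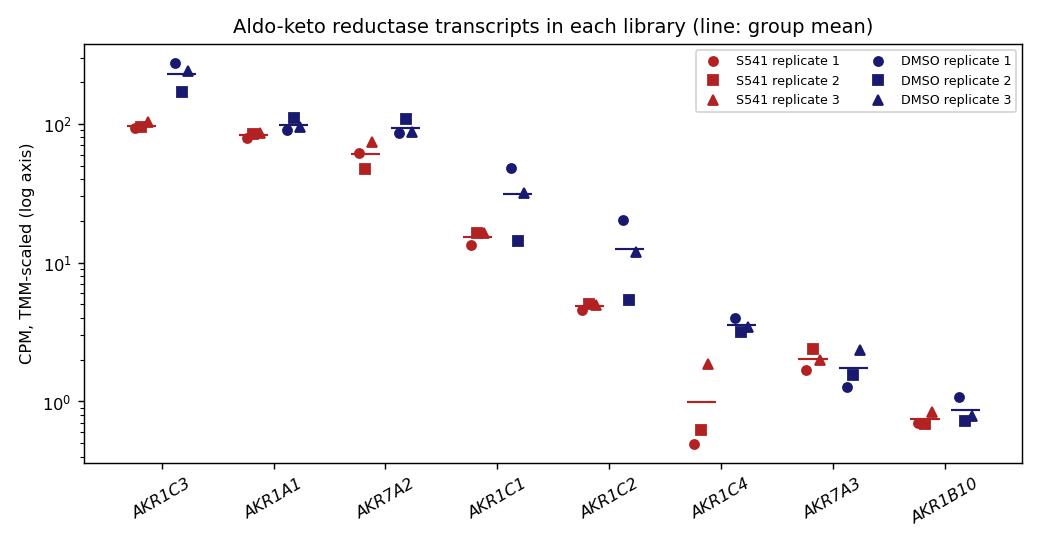
Level of each tested member in every library (y axis, CPM with TMM scaling, log axis), S541 libraries in red and DMSO libraries in dark blue, with symbols for the replicate and a line at the group mean. *AKR1C3* was 92.9 to 103 CPM in S541 and 169 to 274 CPM in DMSO libraries, and the square of DMSO replicate 2 lies near the S541 symbols for *AKR1C1* and *AKR1C2*. *AKR1B15*, at 0 in 4 libraries, is not drawn, as it did not pass the filter on low counts.

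*AKR1C3* encodes a ketosteroid reductase that makes testosterone from androstenedione and also reduces prostaglandins. The gene (ENSG00000196139, chromosome 10, 5035354 to 5107686, hg38) had 92.9, 95.6 and 103 CPM in S541 replicates 1 to 3, against 274, 169 and 239 CPM in DMSO replicates 1 to 3. All S541 libraries lay below all DMSO libraries, and the S541 libraries were close together while the DMSO libraries were spread more widely. *AKR1C3* fell to 97.2 ± 5.24 CPM in S541 libraries, against 227 ± 53.5 CPM in DMSO libraries (SD, n = 3 each), 0.428 of that level. On the log2 scale the change was −1.23 (SE 0.17), with an adjusted p = 0.00758 in edgeR's quasi-likelihood test. In these bulk libraries fewer cells with the transcript and less RNA per cell cannot be told apart. This call held in each of the 15 alternatives, with adjusted p-values up to 0.0436. Likeness of pattern was measured as the root mean square difference of centred log2 CPM over the 6 libraries. The genes most like *AKR1C3* among 10397 with a mean of at least 10 CPM were *ARHGAP18* (0.0838), *AGFG2* (0.0882) and *ERI1* (0.124). *ARHGAP18* had 26.5, 29.5 and 26.6 CPM in S541 and 72.8, 48.5 and 68.6 CPM in DMSO libraries. It was picked for its likeness over these same libraries, so its low value in DMSO replicate 2 follows from that choice.

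*AKR1C1* and *AKR1C2* encode ketosteroid reductases that inactivate progesterone and dihydrotestosterone. *AKR1C1* (ENSG00000187134, 4963253 to 4983283) had 13.4, 16.3 and 16.4 CPM in S541 replicates 1 to 3, against 47.9, 14.3 and 31.6 CPM in DMSO replicates 1 to 3. The groups overlapped, since DMSO replicate 2 lay within the S541 range. *AKR1C2* (ENSG00000151632, 4987400 to 5018031) had 4.56, 5.01 and 4.98 CPM in S541 libraries, against 20.3, 5.34 and 11.97 CPM in DMSO libraries. The groups did not overlap, but DMSO replicate 2 was only just above the S541 libraries. In edgeR's test the log2 fold change of *AKR1C1* was −1.02 (SE 0.37, adjusted p = 0.140) and that of *AKR1C2* −1.37 (SE 0.42, adjusted p = 0.0891), and neither passed. With the counts of both genes added, the change was −1.11 on the log2 scale (SE 0.38, edgeR, adjusted p = 0.118). The sum does not depend on how counted reads were split between the pair. It cannot restore reads that may have been left out, nor set apart reads shared with *AKR1C3*. Without DMSO replicate 2 the sum (−1.47, adjusted p = 0.00855), *AKR1C1* (−1.37, 0.0102) and *AKR1C2* (−1.73, 0.00943) passed, whereas without DMSO replicate 1 *AKR1C1* was at −0.58, *AKR1C2* at −0.84 and the sum at −0.65, with none passing. The ratio of *AKR1C1* to *AKR1C2* counts ran from 2.94 to 3.29 in S541 libraries and from 2.36 to 2.67 in DMSO libraries, without overlap. This ratio rests on the uncertain split of reads between the pair and may hold reads of *AKR1C3*, so it is uncertain too.

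DMSO replicate 2 stood at different points of the DMSO range in different members. Relative to the DMSO mean, DMSO replicate 2 had 42.6% for *AKR1C2*, 45.7% for *AKR1C1*, 74.4% for *AKR1C3* and 89.9% for *AKR1C4*. It had 115% for *AKR7A2* and 112% for *AKR1A1*, the highest of the DMSO libraries for both. The S541 libraries ranged from 36.3 to 39.9% for *AKR1C2*, from 42.9 to 52.4% for *AKR1C1* and from 40.9 to 45.3% for *AKR1C3*. The part of DMSO replicate 2's position on the second principal component in these values was not tested.

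**Figure D2:**
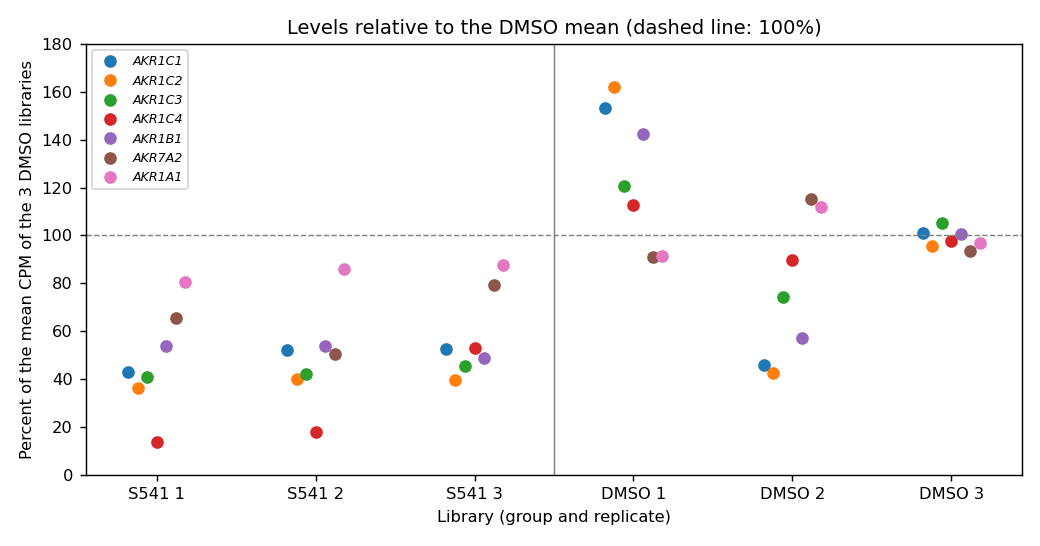
CPM of 6 members and of *AKR1B1* in each library (x axis, S541 replicates then DMSO replicates) as a percent of the mean of the DMSO libraries (y axis). In DMSO replicate 2, *AKR1C1*, *AKR1C2* and *AKR1B1* stand at 45.7, 42.6 and 57.2%, close to the S541 libraries, while *AKR1C4*, *AKR7A2* and *AKR1A1* stand at 89.9, 115 and 112%.

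*AKR1C4* encodes a ketosteroid reductase that is best known from the liver, where it takes part in bile acid synthesis. The gene (ENSG00000198610, 5195462 to 5218949) was near the limit of detection, with 7, 10 and 29 counts in S541 replicates 1 to 3, against 59, 53 and 57 counts in DMSO replicates 1 to 3. The groups did not overlap, and S541 replicate 3 lay between the other S541 libraries and the DMSO libraries. *AKR1C4* fell to 0.997 ± 0.763 CPM in S541 libraries, against 3.54 ± 0.409 CPM in DMSO libraries (SD, n = 3 each). Of the 75-base stretches of *AKR1C3* (97.2 CPM in S541 and 227 CPM in DMSO libraries), 1.96% also occur in *AKR1C4*. The part of such reads in the *AKR1C4* values was not tested, so these values are uncertain. The change of *AKR1C4* was −1.81 on the log2 scale (SE 0.43), and edgeR gave an adjusted p = 0.0441. The call ended without S541 replicate 1 (adjusted p = 0.120) or 2 (0.151), without DMSO replicate 1 (0.106), 2 (0.0599) or 3 (0.115), and with no filter on low counts (0.0746). Without S541 replicate 3 the log2 fold change was −2.64 (adjusted p = 0.0144).

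Among the members outside the AKR1C cluster none passed. *AKR7A2* (ENSG00000053371, chromosome 1, 19303965 to 19312146), which encodes a reductase of succinic semialdehyde, had 61.4, 47.3 and 74.4 CPM in S541 libraries, against 85.5, 108 and 87.8 CPM in DMSO libraries. All S541 libraries were below all DMSO libraries, and the change was −0.62 on the log2 scale (SE 0.17; edgeR, adjusted p = 0.0669). *AKR1A1* (ENSG00000117448, chromosome 1, 45550543 to 45570049), the broadly acting aldehyde reductase, had 79.3, 84.4 and 86.2 CPM in S541 libraries, against 89.8, 110.0 and 95.01 CPM in DMSO libraries, again without overlap. Its change was −0.24 on the log2 scale (SE 0.10; edgeR, adjusted p = 0.188). *AKR7A3* (ENSG00000162482, chromosome 1, 19282558 to 19289250), a reductase of aflatoxin dialdehyde, had 24, 38 and 31 counts in S541 libraries, against 19, 26 and 39 counts in DMSO libraries, and the groups overlapped (0.22 on the log2 scale, SE 0.29; edgeR, adjusted p = 0.690). Since 15.9% of its 75-base stretches also occur in *AKR7L*, a gene of similar sequence, the value of *AKR7A3* is uncertain.

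*AKR1B10* and *AKR1B15* were at the edge of detection in both groups. *AKR1B10* (ENSG00000198074, chromosome 7, 134527592 to 134541408), a reductase of retinal and lipid aldehydes, had 10, 11 and 13 counts in S541 libraries, against 16, 12 and 13 counts in DMSO libraries. The groups overlapped, with a change of −0.20 on the log2 scale (SE 0.31; edgeR, adjusted p = 0.748). *AKR1B15* (ENSG00000227471, chromosome 7, 134549136 to 134579875), whose coding sequence has 92.7% identity with that of *AKR1B10*, had 0, 3 and 4 counts in S541 libraries and 0 in each DMSO library. A count of 0 allows up to 3 counts, or 0.180 to 0.203 CPM in the DMSO libraries, so no fold is given; these limits cover counting error only. For the sum of the pair the change was 0.06 on the log2 scale (SE 0.32; edgeR, adjusted p = 0.933).

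Over the family, 2 of the 8 tested members fell and none rose, where 4.17% of the 15847 tested genes fell and 4.02% rose (8.19% in either direction). The libraries of the groups did not overlap in 5 of 8 tested members, all lower in S541, where 15.2% of all tested genes were lower without overlap. The 8 members had a median log2 fold change of −0.82, against −0.0019 over all tested genes. How far the members vary independently of each other was not tested. Together the 9 genes took 0.0260, 0.0256 and 0.0287% of the counts in S541 libraries, against 0.0520, 0.0403 and 0.0470% in DMSO libraries. *AKR1C3* made 81.3 to 83.4% of the AKR1C counts in S541 and 79.2 to 88.1% in DMSO libraries.

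Some members not called above are called in the authors' deposited table. With a Q-value under 0.05 it holds *AKR1C1* (0.0475), *AKR1C2* (0.0145), *AKR1C3* (7.38e-09), *AKR1C4* (0.00102) and *AKR7A2* (0.0277) as lower, and no member as higher, where 2.06% of its 28099 genes are lower, 2.21% higher and 4.27% either by that rule. For the 8 tested members the log2 fold changes of the authors' deposited table and of the fit here are the same to 2 decimals. DESeq2 also called those 5 members lower, where it called 5.84% of all tested genes lower. The exact test of edgeR, added after the authors' values were seen, called 4, without *AKR1C1* (adjusted p = 0.0658), where it called 5.6% of all tested genes lower.

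**Figure D3:**
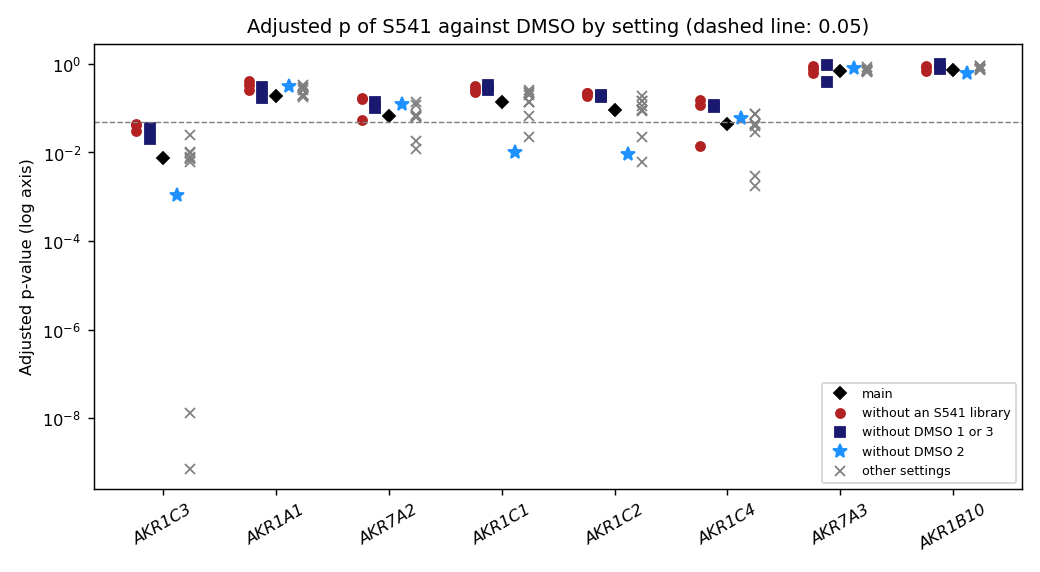
Adjusted p-value of S541 against DMSO (y axis, log axis) for each tested member under the main fit and 15 other settings, with the threshold of 0.05 dashed. *AKR1C3* stays below the line in every setting, *AKR1C1* and *AKR1C2* drop below it without DMSO replicate 2, and *AKR1A1*, *AKR7A3* and *AKR1B10* stay above it.

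Of 7 other genes of the superfamily, 5 were tested and none passed in edgeR's quasi-likelihood test. *AKR1B1*, the aldose reductase of the polyol pathway, was the most abundant of all, with 738, 738 and 668 CPM in S541 libraries, against 1954, 785 and 1381 CPM in DMSO libraries. DMSO replicate 2 was again the lowest of its group, just above the S541 libraries. Its change was −0.94 on the log2 scale (SE 0.28; edgeR, adjusted p = 0.0786), and without DMSO replicate 2 it was −1.22 (adjusted p = 0.00643). *AKR1B1* was called lower by DESeq2 (adjusted p = 0.00369), by edgeR's exact test (adjusted p = 0.0163) and in the authors' deposited table (Q-value 0.00526). For *KCNAB2*, a potassium channel subunit, the change was −0.02 on the log2 scale (SE 0.39), which turned to 0.36 without S541 replicate 1 and to 0.16 without DMSO replicate 2.

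None of 12 genes of NRF2 and its regulators passed. Among them were *NFE2L2* (66.6 ± 4.41 CPM in S541 and 61.8 ± 14.02 CPM in DMSO libraries, log2 fold change 0.11), *KEAP1* (47.8 ± 2.44 CPM in S541 and 53.9 ± 11.96 CPM in DMSO libraries, −0.17), the partner *MAFK* (416 ± 44.0 CPM in S541 and 310.3 ± 56.4 CPM in DMSO libraries, 0.42; edgeR, adjusted p = 0.116) and the autophagy receptor *SQSTM1* (0.16). Without DMSO replicate 1 the values of *NFE2L2* and *KEAP1* changed sign, to −0.067 and 0.015. Of 30 NRF2 target genes outside the family, 27 were tested, of which 2 rose, 3 fell and 22 did not pass. Over all tested genes 4.02% rose and 4.17% fell. The median of the 27 was −0.03 on the log2 scale, against −0.0019 over all tested genes. The changes of named genes that follow are on the log2 scale. The cystine transporter *SLC7A11* rose by 0.82 to 78.4 ± 9.61 CPM in S541 libraries, against 44.4 ± 7.01 CPM in DMSO libraries, and the sulfiredoxin *SRXN1* rose by 0.45. The epoxide hydrolase *EPHX1* fell by 0.63 to 62.3 ± 5.18 CPM in S541 libraries, against 96.4 ± 8.93 CPM in DMSO libraries. The aldehyde dehydrogenase *ALDH3A1* fell by 0.77 and the heme transporter *SLC48A1* by 0.35. *NQO1*, the quinone reductase often read as the marker of NRF2, had 188 ± 25.3 CPM in S541 and 239 ± 13.3 CPM in DMSO libraries and did not pass (−0.35, adjusted p = 0.102, edgeR). The calls ended, with 1 library left out and edgeR's adjusted p in parentheses, for *SLC7A11* without S541 1 or 2 (0.0629 and 0.0665), *EPHX1* without S541 1 or 2 or DMSO 3 (0.0572 to 0.0713), *ALDH3A1* without any but DMSO 2 (0.0607 to 0.0844) and *SRXN1* without any but DMSO 2 (0.0515 to 0.0970) or with no filter on low counts (0.0523).

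Genes that supply NADPH, the cofactor of these reductases, were lower where they passed. Of 12, the transhydrogenase *NNT* fell by 0.53 to 222 ± 15.1 CPM in S541 libraries, against 322 ± 13.6 CPM in DMSO libraries, the isocitrate dehydrogenase *IDH1* fell by 0.45 and the folate enzyme *MTHFD1* by 0.39, and 9 did not pass. All 12 log2 fold changes were below 0, with a median of −0.25, against −0.0019 over all tested genes, of which 4.17% fell. The *NNT* call ended without S541 1 (0.0544) or DMSO 3 (0.0558), that of *IDH1* without any library but DMSO 2 (0.0536 to 0.0766) and that of *MTHFD1* without S541 1 or 2 or DMSO 1 or 3 (0.0627 to 0.0978). Of 14 tested aldehyde and carbonyl enzymes, *ALDH7A1*, which oxidises lysine-derived aldehydes, fell by 0.44, a call lost without any library but DMSO 2 (0.0592 to 0.0912), and 13 did not pass.

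Genes of steroid, prostaglandin and retinoid metabolism changed in a few cases, where 4.17% of all tested genes fell and 4.02% rose. Of 14 tested steroid enzymes, steroid sulfatase (*STS*) fell by 0.63 to 87.1 ± 7.01 CPM in S541 libraries, against 134 ± 20.6 CPM in DMSO libraries, and *SRD5A3*, a polyprenol reductase, fell by 0.64. The *STS* call ended without any library but DMSO 2 (0.0675 to 0.111) and that of *SRD5A3* without any of the 6 libraries (0.0623 to 0.117) and with no filter on low counts (0.0677). Of 9 tested prostaglandin enzymes 3 fell and none rose. *HPGD*, which degrades prostaglandins, had 1.54, 1.19 and 1.03 CPM in S541 libraries, against 6.21, 4.92 and 5.50 CPM in DMSO libraries (−2.14, SE 0.22; edgeR, adjusted p = 0.00334) and passed in each alternative. The prostaglandin D synthase *PTGDS* fell by 1.27 and the cyclooxygenase *PTGS1* by 0.60, calls that ended for *PTGDS* without S541 1, 2 or 3 or DMSO 3 (0.0590 to 0.0955) and for *PTGS1* without S541 2 or 3 or DMSO 1 or 3 (0.0554 to 0.0707). Of 10 tested retinoid genes, *CYP26B1*, which degrades retinoic acid, rose to 74.0 ± 2.13 CPM in S541 libraries, against 23.4 ± 6.87 CPM in DMSO libraries (1.66, SE 0.19; edgeR, adjusted p = 0.00452), and passed in each alternative, while the other 9 did not pass.

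**Figure D4:**
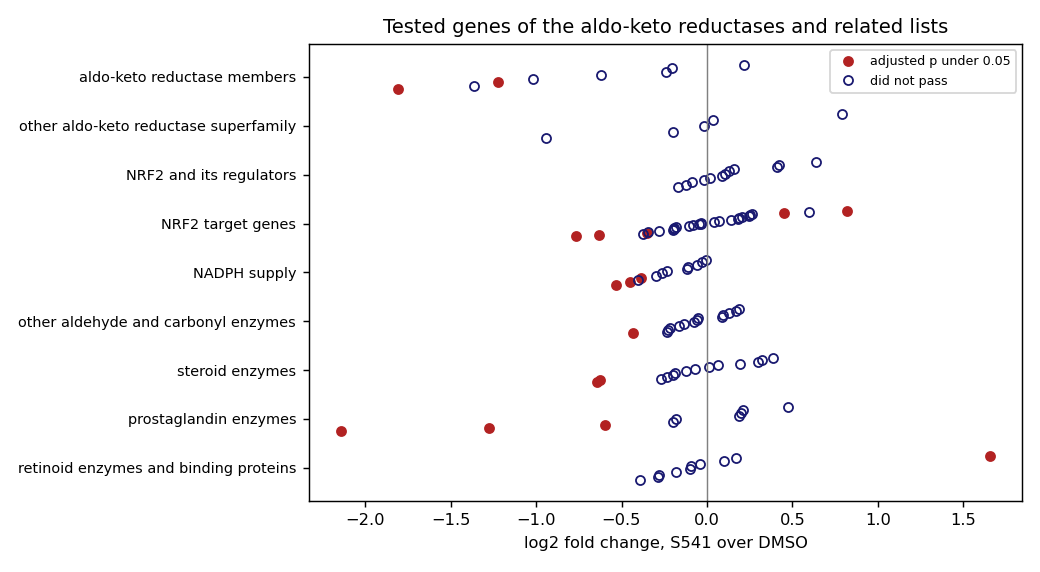
Log2 fold change of S541 over DMSO (x axis) for each tested gene of the family and of 8 related lists (rows), filled red where the adjusted p-value was under 0.05. The called members of the family lie at −1.81 and −1.23, and the 12 NADPH genes all lie below 0. The median over all tested genes was −0.0019.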

How the data were processed

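RNA was measured by sequencing in 6 libraries, 3 with S541 and 3 with DMSO. Raw counts per gene and FPKM (counts scaled by library size and gene length) were deposited by the authors, per the file headers. Build hg38 and edgeR are named in the submitters' processing notes; the aligner, the counter and the use of strand are not stated in the labels or headers. The log2 fold change, p-value and Q-value of the comparison are the authors' deposited values. Counts were used as deposited, with a total per library of 13956648 to 17044139, and were fitted here over all genes with edgeR 4.0.16 in R 4.3.3 (TMM, filterByExpr, glmQLFit, glmQLFTest, group only), with 2-sided p-values and Benjamini-Hochberg adjustment over 15847 genes. Genes with an adjusted p under 0.05 are said to rise or fall. The SE is the absolute log2 fold change over the root of F. The common biological coefficient of variation was 0.163. The fit was tested on simulated data with known changes. It recovered 10 of 50 genes at a fold of 1.5, 31 of 50 at 2, 49 of 50 at 4 and 28 of 50 at 0.5. It also called 8 genes without a set change. Many changes of 2-fold or less were thus missed in the simulated data.

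Alternatives were size factors of DESeq2 (edgeR's RLE) and upper-quartile scaling, other filters, DESeq2 1.42.0, limma-voom (limma 3.58.1), robust estimation, a replicate block, each library left out and, added later, edgeR's exact test. Loci of all members matched GENCODE release 29, whose transcripts gave the shared 75-base stretches (either strand) and coding identities. Named genes were all members, then per list up to 4 genes past the threshold with at least 1 CPM by size of change, or the 2 most abundant where none passed, the 3 genes most like *AKR1C3*, and *NFE2L2*, *KEAP1* and *NQO1*; *CDKN2A*, *MTAP*, *ALDH1A1* and the markers came from the gene and marker lists, and *SLC48A1* was added to complete a count. Members, lists and tests were chosen with earlier results of these data known. The sum of the retinal marker list is not reported here.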

Additional observations from a re-analysis of the deposited data

How the results depend on the processing

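The number of members called lower was 2 in the main fit, 1 with no filter on low counts, 5 with DESeq2, 4 with the exact test and 1 with the replicate block, and 1 to 3 with 1 library left out. No member was called higher in any setting, with DESeq2 and the exact test included. The summed *AKR1C1* and *AKR1C2* counts passed with the exact test (log2 fold change −1.11, adjusted p = 0.0413), chosen after seeing the data, but not with DESeq2 (adjusted p = 0.143), and ranged from −1.47 to −0.65 with 1 library left out. The summed *AKR1B10* and *AKR1B15* counts ranged from −0.12 to 0.24 with 1 library left out. With 1 library left out the sign changed for *KCNAB2* (−0.31 to 0.36), *KEAP1* (−0.30 to 0.015) and *NFE2L2* (−0.067 to 0.25); the cause was not tested. Over all genes, 1298 were called, against 753 with no filter on low counts, 392 with the replicate block, 1790 with DESeq2, 1757 with the exact test and 349 to 1330 with 1 library left out. *AKR1B10* and its sum have no value at a minimum of 1 CPM in 3 libraries.

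The replicate numbers are shared by the groups, and the correlations of deviations of same-numbered libraries were 0.104, −0.081 and −0.078. The largest correlation was 0.198, between S541 replicate 3 and DMSO replicate 2. These values cannot tell whether same-numbered libraries were handled together. With the block the calls of *AKR1C4* (adjusted p = 0.0722), *ALDH3A1*, *ALDH7A1*, *EPHX1*, *IDH1*, *MTHFD1*, *NNT*, *PTGDS*, *SLC7A11*, *SRD5A3*, *SRXN1* and *STS* (0.0532 to 0.0968) ended. Depth limits *AKR1B10*, *AKR1B15*, *AKR1C4* and *AKR7A3*, each under 60 counts per library. The alternatives were not computed for *SLC48A1*, the marker genes or the genes most like *AKR1C3*.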
